A study of Mus musculus with 8 samples.

Results

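The 10 genes described here encode the enzymes that make prostaglandins, the receptors that sense them and the enzyme that breaks them down. They were chosen by symbol (Ptgs1, Ptgs2, Ptges, Ptgis, Ptger2, Ptger3, Ptger4, Ptgfr, Ptgir and Hpgd), and all 10 were among the 19301 genes of the expression table. mRNA was sequenced from TSCs, tendon-derived stem cells grown from collagenase-digested patellar tendon of C57BL/6J mice. For 4 days, TSCs were cultured either in low glucose medium (LG, 5.5 mM glucose with DMSO) or in high fat, high glucose medium (HFHG), which holds more glucose and, at 300 µM, the saturated fatty acid palmitic acid. Each medium had 4 biological replicates. The media are compared as a whole, and the parts of glucose and of palmitic acid cannot be told apart. The sources used here give neither the age of the mice nor whether replicates came from separate animals, so p-values measure the spread between these 8 cultures. Library totals, recovered from the values, were 34308108 to 37362725 reads. LG replicate 4 stood apart, with 8.68 to 12.8 times the Poisson variance of reads against the other LG libraries, where all other pairs of replicates had 3.43 to 4.89 times.

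Prostaglandins are lipid signals made on demand from arachidonic acid, which phospholipases free from membranes. The cyclooxygenases Ptgs1 (COX-1) and Ptgs2 (COX-2) turn it into the unstable prostaglandin H2, and terminal synthases convert that into single products: Ptges, the inducible microsomal enzyme, makes prostaglandin E2, and Ptgis makes prostacyclin. Each product acts on its own G protein-coupled receptors, and Hpgd, 15-hydroxyprostaglandin dehydrogenase, inactivates prostaglandins inside cells. In tendon, prostaglandin E2 is known as a mediator of inflammation and of the response to mechanical load.

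The sequences before the start sites of both cyclooxygenase genes and of Hpgd are shown because these genes code for the opposite ends of the pathway and are the members that were both abundant and clearly changed. Each is the 250 bases before the RefSeq start site (GRCm38.p6, written 5′ to 3′ on the strand of the gene, here the plus strand in all 3), at chr1:150099781-150100030 for Ptgs2, chr2:36230176-36230425 for Ptgs1 and chr8:56294302-56294551 for Hpgd. Capitals mark the GC box GGGCGG on either strand, the one searched motif found in these windows.

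Ptgs2: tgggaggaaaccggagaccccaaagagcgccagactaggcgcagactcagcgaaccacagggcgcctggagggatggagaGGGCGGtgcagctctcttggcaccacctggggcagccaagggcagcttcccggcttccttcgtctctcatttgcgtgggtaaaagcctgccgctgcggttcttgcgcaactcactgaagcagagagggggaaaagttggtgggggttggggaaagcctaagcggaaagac

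Ptgs1: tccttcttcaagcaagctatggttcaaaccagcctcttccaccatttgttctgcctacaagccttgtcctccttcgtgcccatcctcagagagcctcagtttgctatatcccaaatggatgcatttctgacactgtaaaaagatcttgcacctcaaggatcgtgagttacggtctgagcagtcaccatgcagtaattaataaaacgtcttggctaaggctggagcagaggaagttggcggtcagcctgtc

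Hpgd: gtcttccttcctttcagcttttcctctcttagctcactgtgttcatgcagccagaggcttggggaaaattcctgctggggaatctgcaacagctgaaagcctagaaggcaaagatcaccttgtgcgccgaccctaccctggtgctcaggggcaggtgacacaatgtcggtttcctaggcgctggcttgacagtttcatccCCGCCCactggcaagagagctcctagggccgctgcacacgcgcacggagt

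The window of Ptgs2 held 1 GC box, that of Hpgd held 1, on the other strand, and that of Ptgs1 held 0. The set of RefSeq promoters used here held such windows for 9 of the 10 genes, all but Ptgis. Of these, 7 held a GC box (Ptgs2, Ptges, Ptgfr, Ptger3, Ptger4, Ptgir and Hpgd), a motif found in 32.7% of all 32851 windows of the same length, and 2 held CCAAT (Ptger2 and Ptger4), found in 33.8% of all. The TATA box TATAAA (12.4% of all windows), the core of the cAMP response element TGACG (17.8%), the AP-1 site TGANTCA (6.75%), the E-box CACGTG (6.02%), the NF-kB site (7.25%) and the PPAR DR1 site, searched by its consensus, (0.0335%) were found in 0 of the 9 on either strand. In the window of Ptger4, 2 of its 4 GC boxes share a base, and no other matches overlapped. The shares over all windows were not matched for GC content, which was 61.6% for Ptgs2, 56.8% for Hpgd and 48% for Ptgs1, with a median of 52.4% over all windows. These are matches of letters in 1 window per gene, and an absent match says only that the letters are not in that window.

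In HFHG, the breakdown enzyme gene Hpgd and the prostaglandin F receptor gene Ptgfr rose the most, 3.87-fold and 5.71-fold by limma. Both cyclooxygenase genes, Ptgis and the E receptor gene Ptger4 rose less, by 1.33-fold to 1.73-fold. Ptges was 1.05-fold higher, and the prostacyclin receptor gene Ptgir fell. The FPKM values (fragments per kilobase of gene, scaled to library size) were compared as log2(FPKM + 0.1) with limma over the 11710 genes with at least 0.5 FPKM in at least 4 libraries, which included 9 members. Ptger3 did not reach that level. At an adjusted p-value below 0.05, 7 members were higher in HFHG, against 34.0% of all tested genes, and 1 was lower, against 30.8%. At the threshold of the study, a log2 fold change beyond 1 with an unadjusted p-value below 0.05, 2 members were higher, against 3.68% of all tested genes, and 0 were lower, against 1.65%. The shares at this threshold are from the limma fit used here and are not the counts that the paper reports. The HFHG and LG values did not overlap in 8 members, against 59.2% of the tested genes. The median log2 fold change was 0.52 over the 9 tested members and 0.02 over all tested genes. The members were chosen with earlier results of these data known, so these comparisons with all tested genes are descriptions only. Without LG replicate 4, 7 members were higher and 1 was lower, as with all 8 libraries.

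**Figure D1:**
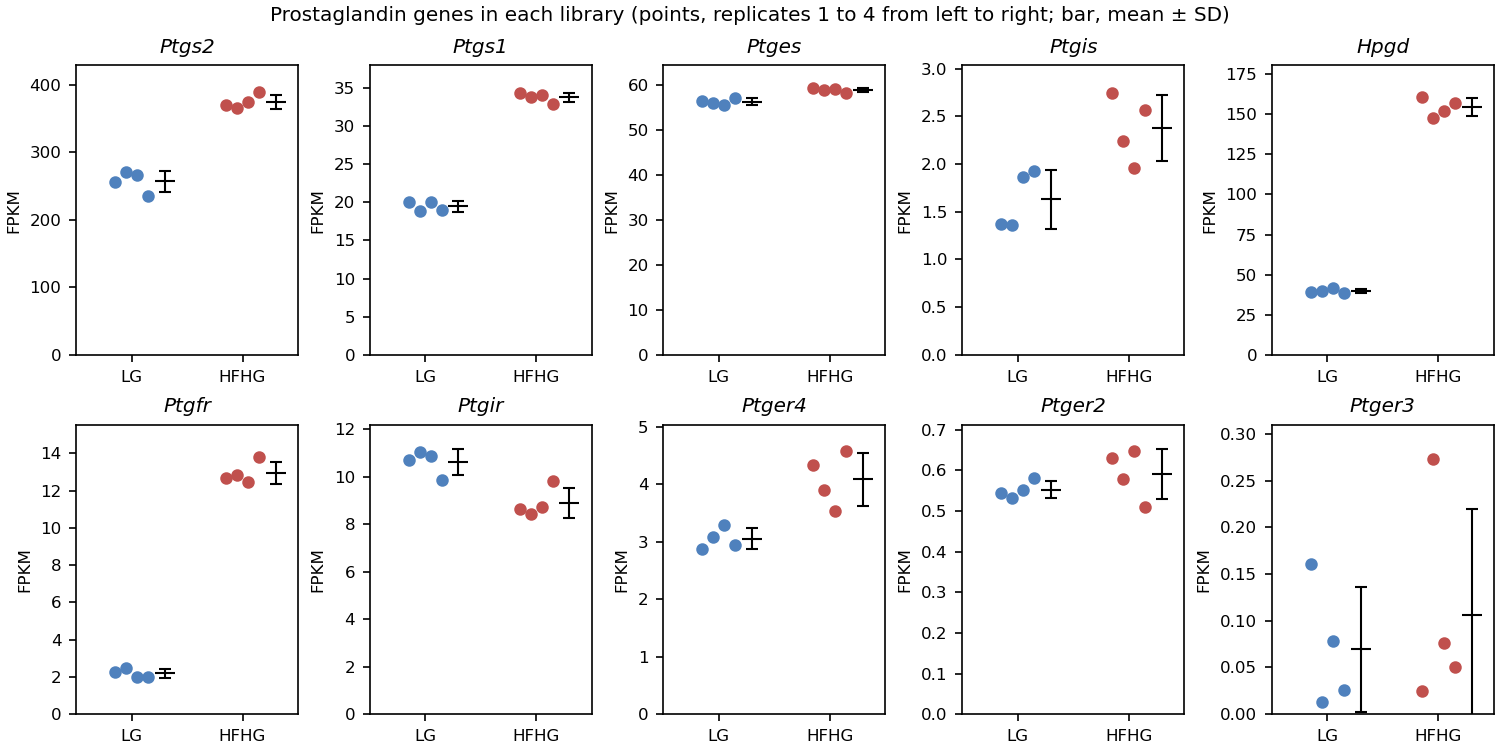
FPKM (vertical axes, each from 0) of the 10 genes in the 4 LG (blue) and 4 HFHG (red) libraries, one point per library, with the mean ± SD as a black bar. Hpgd and Ptgfr show the widest gap between the media, Ptges hardly differs, and the points of Ptger2 and Ptger3 overlap.

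Ptgs2, the cyclooxygenase that inflammatory signals induce, was the most abundant of the 10 genes. It lies on the plus strand of chromosome 1 from 150100031 to 150108227 (GENCODE M21, GRCm38). Ptgs2 was 370, 365, 374 and 389 FPKM in HFHG replicates 1 to 4 and 255, 271, 267 and 235 FPKM in LG replicates 1 to 4. Every HFHG library was above every LG library, and LG replicate 4 was the lowest. The means were 375 ± 10.5 and 257 ± 16.0 FPKM (SD, n = 4 per medium), and the log2 fold change was 0.55 ± 0.0396 (standard error; limma, adjusted p = 8.99e-08). Without LG replicate 4 it was 0.50. These values rest on 37284 to 63434 reads per library.

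Ptgs1, the cyclooxygenase that many cells express constantly, changed in the same direction. It lies on chromosome 2 from 36230426 to 36252272, where Gm43621 is annotated on the opposite strand. Its expression was 34.3, 33.8, 34.0 and 32.9 FPKM in HFHG and 20.1, 18.8, 20.1 and 19.0 FPKM in LG, so the groups stood well apart and replicates were close. The log2 fold change of Ptgs1 was 0.79 ± 0.0343 (standard error; limma, adjusted p = 6.90e-10). Ptgs2 exceeded Ptgs1 in every library, by 10.8 to 11.8 times in HFHG and by 12.4 to 14.4 times in LG on the FPKM scale.

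The terminal synthases differed from each other in level and in change. Ptges, on chromosome 2 from 30889471 to 30929863, was 59.4, 58.9, 59.0 and 58.2 FPKM in HFHG and 56.4, 56.1, 55.4 and 57.2 FPKM in LG. These narrow ranges did not overlap, but the means were only 4.60% apart. The log2 fold change of Ptges was 0.06 (95% confidence interval 0.01 to 0.12, limma, adjusted p = 0.0329), and the call was lost with median-ratio scaling (adjusted p = 0.345) and when any 1 of 6 libraries was left out. Ptgis, on chromosome 2 from 167191805 to 167240604, was far lower, at 2.74, 2.24, 1.96 and 2.57 FPKM in HFHG and 1.37, 1.36, 1.86 and 1.93 FPKM in LG. The lowest HFHG library and the highest LG library nearly touched, and the number of reads was small, 140 to 203 and 93 to 136. Noncoding transcripts are annotated on the opposite strand of Ptgis, and a processed pseudogene, Gm13400, overlaps Ptges on the same strand. Ptgis rose by a log2 fold change of 0.52 ± 0.136 (standard error; limma, adjusted p = 0.00456). On the FPKM scale, the ratio of Ptges to Ptgis was 25.2 ± 3.82 in HFHG and 35.5 ± 6.66 in LG (SD, n = 4 per medium), with ranges of 21.7 to 30.1 and 29.7 to 41.3 that overlapped.

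Hpgd catalyses the first step by which prostaglandins lose their activity. The gene lies on the plus strand of chromosome 8 from 56294585 to 56321043, downstream of the third sequence above. Another annotated gene, Gm45540, overlaps it on the same strand. Hpgd was 161, 148, 152 and 157 FPKM in HFHG and 39.0, 39.8, 42.0 and 38.5 FPKM in LG. Every HFHG library was thus more than 3 times the highest LG library. The means were 154 ± 5.72 and 39.8 ± 1.54 FPKM (SD, n = 4 per medium), with a log2 fold change of 1.95 ± 0.0347 (standard error; limma, adjusted p = 2.68e-13). Its absolute log2 fold change was larger than that of 99.3% of the tested genes. Because Hpgd moved more than Ptgs2, the FPKM ratio of Hpgd to Ptgs2 was 0.403 to 0.435 in the HFHG libraries and 0.147 to 0.164 in the LG libraries. The transcripts of the breakdown enzyme and of the inducible synthesis enzyme were therefore both higher in HFHG, and in unequal measure. Protein levels and prostaglandins were not measured in these libraries.

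**Figure D2:**
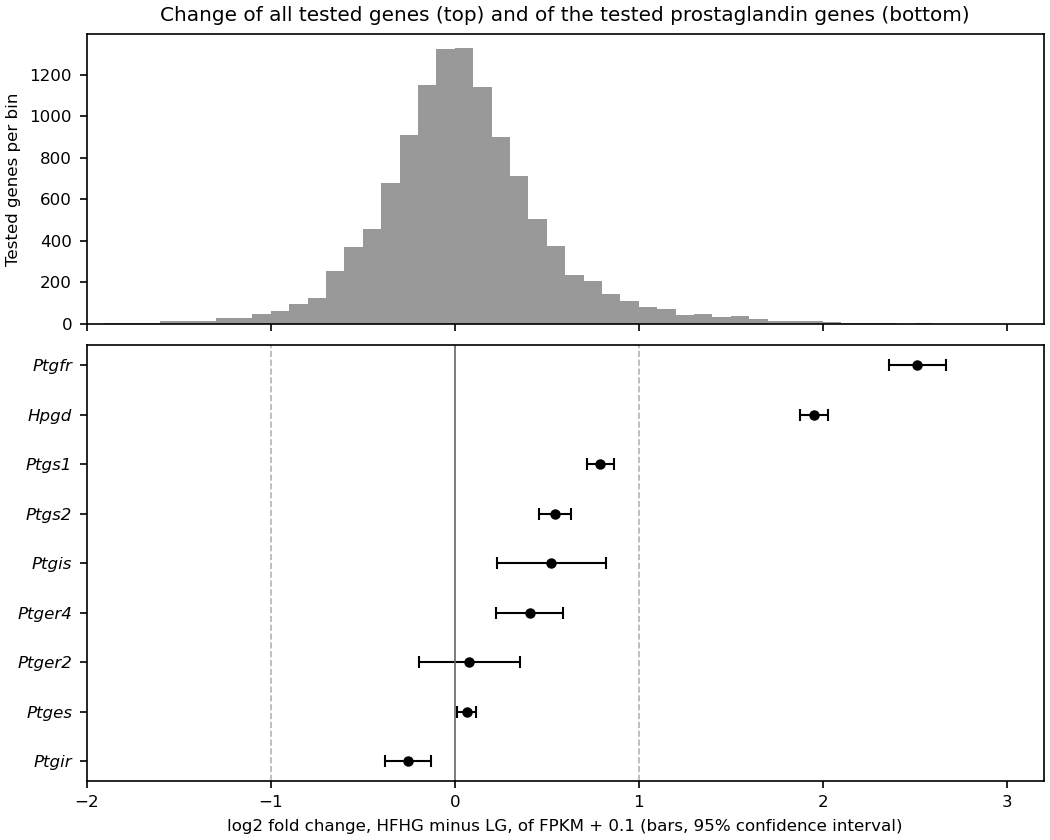
Top, number of tested genes (vertical axis) per 0.1 of log2 fold change. Bottom, log2 fold change of the 9 tested members with its 95% confidence interval, HFHG minus LG on the horizontal axis, with dashed lines at -1 and 1. Ptgfr (2.51) and Hpgd (1.95) lie beyond 1, the interval of Ptger2 spans 0, and Ptgir (-0.25) is the member below 0.

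Among the receptors, the largest difference was in Ptgfr, the receptor of prostaglandin F2α, which couples to Gq and raises intracellular calcium. Ptgfr lies on the minus strand of chromosome 3 from 151796502 to 151837630, where Gm43618 is annotated on the opposite strand. It was 12.7, 12.8, 12.5 and 13.8 FPKM in HFHG and 2.28, 2.48, 2.0 and 2.01 FPKM in LG, with 1983 to 2228 and 313 to 397 reads per library. The groups were far apart next to the spread within either. The log2 fold change of Ptgfr was 2.51 ± 0.0724 (standard error; limma, adjusted p = 1.51e-11), larger in size than for 99.8% of the tested genes. With a pseudocount of 1 it was 2.13, since the LG level is small.

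Ptgir, the Gs-coupled receptor of prostacyclin, changed in the other direction. It lies on chromosome 7 from 16906490 to 16910905. Ptgir was 8.65, 8.41, 8.72 and 9.81 FPKM in HFHG and 10.7, 11.04, 10.9 and 9.84 FPKM in LG. HFHG replicate 4 and LG replicate 4 were almost equal, and the other libraries of each group lay further apart. The log2 fold change of Ptgir was -0.25 ± 0.0570 (standard error; limma, adjusted p = 0.00176). A log2 fold change of this size is common here, as 51.2% of the tested genes had a smaller one in absolute terms. Ptgir is known from macrophages as well as from vessels, and macrophage markers were lower in HFHG too. Of the 10 listed, 9 had a mean of at least 1 FPKM (Cd163 did not), and their summed level was 1727 to 1776 FPKM in HFHG and 1897 to 1978 FPKM in LG, most of it Lyz2. Of the 9 that were tested, 8 were lower and 0 were higher, against 30.8% and 34.0% of all tested genes, with a median log2 fold change of -0.52. Adgre1, which codes for the macrophage surface protein F4/80, was 26.5 ± 1.23 FPKM in HFHG and 38.0 ± 1.28 FPKM in LG (SD, n = 4 per medium). The part of macrophages in the result for Ptgir, and for the members that rose, was not tested. Fewer cells of a type and less RNA per cell cannot be told apart in such bulk libraries.

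The E receptors among the members, Ptger2, Ptger3 and Ptger4, were lower in level than Ptgir. Ptger4 (EP4, Gs-coupled, chromosome 15 from 5206661 to 5244187) was 4.33, 3.91, 3.54 and 4.58 FPKM in HFHG and 2.87, 3.09, 3.29 and 2.95 FPKM in LG. All HFHG values were above all LG values, and the log2 fold change was 0.41 ± 0.0844 (standard error; limma, adjusted p = 9.89e-04). The 3′ end of the annotated Ptger4 overlaps Ttc33 on the opposite strand. Ptger2 (EP2, also Gs-coupled, chromosome 14 from 44988195 to 45003820) was 0.629, 0.579, 0.647 and 0.510 FPKM in HFHG and 0.543, 0.532, 0.552 and 0.582 FPKM in LG, and the groups overlapped. Its log2 fold change of 0.08 did not pass the test (95% confidence interval -0.19 to 0.35, limma, adjusted p = 0.596), on 80 to 101 reads per library. Antisense transcripts are annotated across Ptger2, and whether reads were counted by strand is not given in the sources used here.

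Ptger3 (EP3, Gi-coupled, chromosome 3 from 157566892 to 157645888) was at the limit of detection. HFHG replicates 1 to 4 held 2, 21, 6 and 4 reads and LG replicates 1 to 4 held 12, 1, 6 and 2 reads, so 1 HFHG library supplied 21 of 33. Mean levels were 0.106 ± 0.113 and 0.0693 ± 0.0672 FPKM (SD, n = 4 per medium; p = 0.657, exact two-sided permutation test). The ratio of summed reads per total was 1.53 (95% exact interval 0.860 to 2.79, counting error only), and 0.736 (0.330 to 1.57) without HFHG replicate 2. A difference in Ptger3 was not detectable at this depth.

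Summed over the 5 receptor genes, the level was 26.6 ± 1.46 FPKM in HFHG and 16.5 ± 0.752 FPKM in LG (SD, n = 4 per medium). The sum leaves out receptors that are not members, such as Ptger1 and Tbxa2r, described below. The make-up of this sum differed between the media. Ptgfr took 48.0% to 49.4% of it in the HFHG libraries and 11.9% to 14.4% in the LG libraries. Ptgir went the other way, with 32.3% to 34.2% in HFHG and 63.9% to 64.7% in LG. The share of Ptger4 was 13.9% to 16.4% in HFHG and 17.3% to 19.6% in LG. These shares are descriptions of transcripts per length, given without a test.

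**Figure D3:**
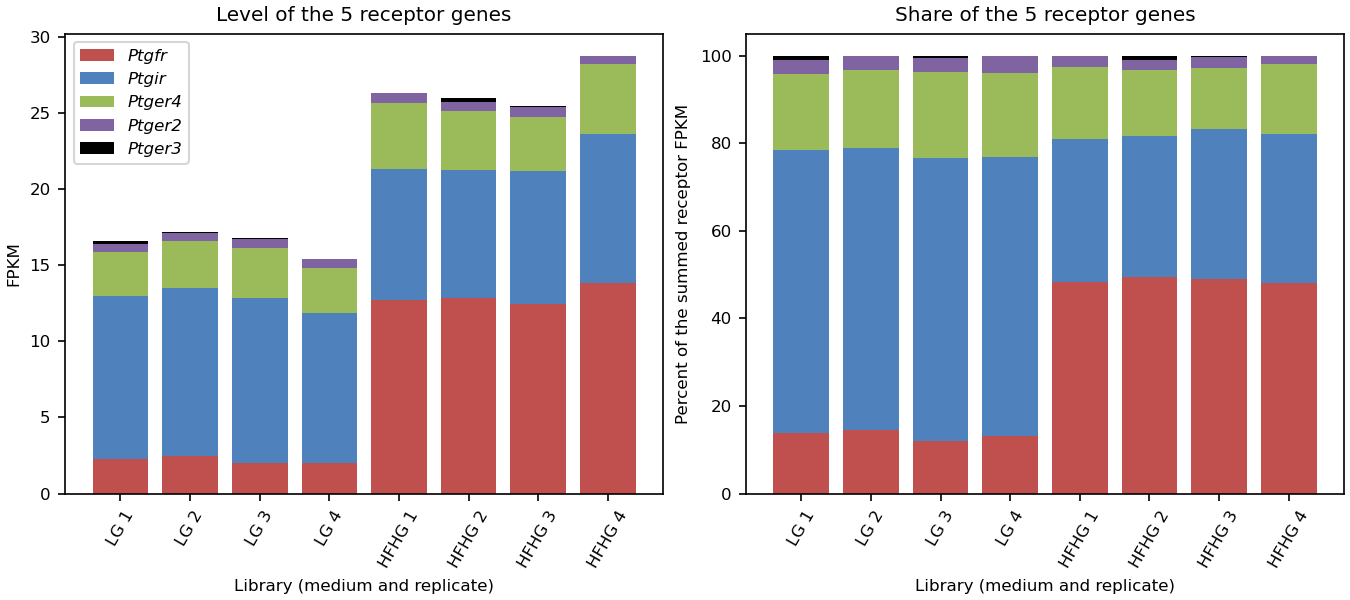
FPKM of the 5 receptor genes stacked for each library (left) and the same as a percent of their sum (right), with libraries on the horizontal axis. Ptgfr (red) is close to 49% of the sum in each HFHG library and at most 14.4% in LG, while Ptgir (blue) is the largest part in each LG library.

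By level per gene length, the order in HFHG was Ptgs2, Hpgd, Ptges, Ptgs1, Ptgfr, Ptgir, Ptger4, Ptgis, Ptger2 and Ptger3. In LG it was Ptgs2, Ptges, Hpgd, Ptgs1, Ptgir, Ptger4, Ptgfr, Ptgis, Ptger2 and Ptger3. Hpgd was thus above Ptges only in HFHG, and Ptgfr was above Ptgir and Ptger4 only in HFHG. In all 4 libraries of each group the rank of every member was the same, and the ranges of neighbours in either order did not overlap.

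Genes on either side of these steps were read from 7 lists of 79 symbols in all, of which 2 are second names of listed genes (Fam213b of Prxl2b and Ptgr3 of Zadh2). Of the 79, 73 were in the table and 49 passed the filter on low values. With limma's adjusted p-value below 0.05 as the limit, 19 of the 49 were higher in HFHG and 16 were lower, next to the 34.0% and 30.8% of all tested genes given above. Of the phospholipases that can free arachidonic acid, listed with their activating protein Plaa, 6 of 16 were tested, 2 were higher and 3 were lower, Plaa (log2 fold change -0.18) among the latter. Pla2g4a, the cytosolic enzyme that prefers arachidonic acid, was 79.5 ± 1.23 FPKM in HFHG and 59.6 ± 0.835 FPKM in LG (SD, n = 4 per medium), a log2 fold change of 0.41 (limma, adjusted p = 1.32e-08). The lysosomal Pla2g15 had 0.33. The secreted enzymes Pla2g2e and Pla2g12a fell, with log2 fold changes of -2.01 and -1.01, and Pla2g2e was 4.12 to 5.03 FPKM in HFHG against 17.3 to 20.6 FPKM in LG.

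Of the 13 other terminal synthases in the table, 10 were tested, 4 were higher and 6 were lower. Akr1c18, an aldo-keto reductase, had the largest change, from 10.7 ± 0.832 to 23.6 ± 2.61 FPKM (SD, n = 4 per medium; log2 fold change 1.13, limma, adjusted p = 4.40e-08). Akr1b8, of the same superfamily, had a log2 fold change of 0.52. Akr1b3, the aldose reductase, which can also make prostaglandin F2α, had -0.16, and Ptges3, a prostaglandin E synthase better known as the Hsp90 partner p23, had -0.32. Reads of aldo-keto reductase genes may be shared between near-identical copies. Beyond the 5 receptors above, 3 of 5 listed genes were tested and 2 were higher. Tbxa2r, the thromboxane receptor, was 1.6 to 2.54 FPKM in HFHG and 0.337 to 0.646 FPKM in LG (log2 fold change 1.93, limma, adjusted p = 9.04e-07), on 627 and 139 reads in all, and with a pseudocount of 1 the log2 fold change was 1.04. Ptgfrn, a membrane protein that binds the F receptor and lowers its ligand binding, had a log2 fold change of 0.30 (limma, adjusted p = 9.19e-05). Ptger1, the E receptor EP1, was 1.38 FPKM in HFHG and 1.24 FPKM in LG in mean. Its log2 fold change of 0.16 did not pass (limma, adjusted p = 0.281). Ptgdr2, which recognises prostaglandin D2, stayed below 0.04 FPKM in each library.

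Of the 6 genes for transport and the later steps of breakdown, all 6 were tested, 2 were higher and 1 was lower. Slco2a1, the transporter that brings prostaglandins into cells, where Hpgd acts, was 24.3 ± 0.720 FPKM in HFHG and 24.8 ± 0.830 FPKM in LG (SD, n = 4 per medium; log2 fold change -0.03, limma, adjusted p = 0.430). The reductases that act on the products of Hpgd differed little, with log2 fold changes of 0.15 for Ptgr1 (adjusted p = 0.00484), 0.09 for Zadh2 (adjusted p = 0.0252) and 0.09 for Ptgr2 (adjusted p = 0.0754), each by limma. The call of Zadh2 was lost in 5 of 18 alternatives, and Ptgr2 passed in 2 of them. Next to the log2 fold change of 1.95 in Hpgd, these are small.

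Of the 13 lipoxygenase and leukotriene genes, 4 were tested and 1 was higher. This was Ltc4s, leukotriene C4 synthase, with 0.914 ± 0.269 FPKM in LG and 3.62 ± 0.877 FPKM in HFHG (SD, n = 4 per medium; log2 fold change 1.88, limma, adjusted p = 2.52e-06), on 91 and 368 reads in all, and with a pseudocount of 1 the log2 fold change of Ltc4s was 1.26. The log2 fold changes of Alox5 (0.11), Alox5ap (0.03) and Lta4h (-0.06), which make leukotriene A4 and use it, did not pass, but Lta4h did with median-ratio scaling (-0.09, limma, adjusted p = 0.0324). Of 14 immediate genes that respond to cAMP, the messenger of EP2, EP4 and the prostacyclin receptor, 10 were tested, 5 were higher and 2 were lower. Fos (0.40) and Nr4a1 (0.20) rose, Atf3 (-0.76) fell, and Dusp1 (-0.01) did not pass. The call of Nr4a1 was lost with quantile normalization (limma, adjusted p = 0.113) and without HFHG replicate 3 (limma, adjusted p = 0.0525). Of 10 proteins that bind AU-rich mRNAs such as that of Ptgs2, all 10 were tested, 3 were higher and 4 were lower. Those that were higher belong to the Zfp36 family, which speeds the decay of such mRNAs: Zfp36l1 had a log2 fold change of 0.90 (85.5 ± 1.55 against 45.9 ± 0.875 FPKM, SD, n = 4 per medium), Zfp36 of 0.23 and Zfp36l2 of 0.16. Khsrp, another decay factor, had -0.11, and its call was lost with FPKM rescaled to the same sum (limma, adjusted p = 0.258).

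**Figure D4:**
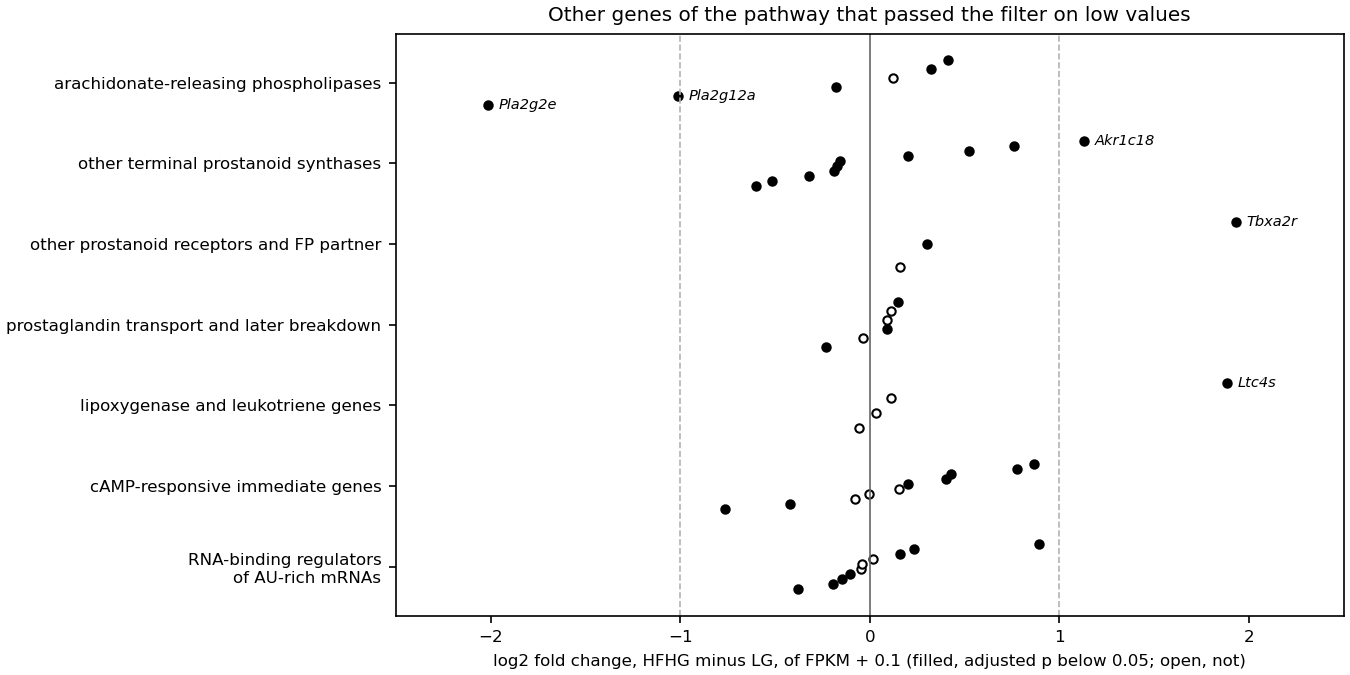
log2 fold change (horizontal axis, HFHG minus LG) of the 49 tested genes of the 7 lists, one point per gene, filled where the adjusted p-value is below 0.05, with dashed lines at -1 and 1. Tbxa2r, Ltc4s and Akr1c18 lie above 1, Pla2g2e and Pla2g12a lie below -1, and most points lie between.

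The labelled cell type was checked by marker genes: 9 of 10 tendon markers and 5 of 5 stem cell surface markers had a mean of at least 1 FPKM (Tnmd did not). A mean of at least 1 FPKM was also reached by 9 of 10 macrophage markers, described above with Ptgir. Their sum, most of it Lyz2, was above that of the tendon markers in LG (1897 to 1978 FPKM) and below it in HFHG (1727 to 1776 FPKM). The check therefore does not show that the cultures held tendon cells alone. The summed tendon markers were 2497 to 2550 FPKM in HFHG and 1621 to 1656 FPKM in LG, nearly all from Col1a1, Col1a2, Dcn, Thbs4 and Tnc. Of the 10, 7 were higher and 2 (Mkx and Egr1) were lower. For each marker list, the shares over all tested genes were 34.0% higher and 30.8% lower. Scx and Tnmd, both higher, had means of only 1.86 and 0.855 FPKM over all libraries. By qPCR, the paper reports the other direction in HFHG medium for Scx and Tnmd, and no significant change of Mkx. Among the 5 surface markers, 4 were higher and 1 was lower. These lists moved in the direction of most members, and their part in the results was not tested. Smooth muscle and pericyte markers summed to 82.6 to 87.8 FPKM in HFHG and 51.5 to 55.7 FPKM in LG, where 4 of 4 tested markers were higher, and their part in the results was not tested either. Endothelial markers, which mark another cell type known for Ptgis, summed to at most 0.615 FPKM, and 0 of 5 could be tested. Mast cell markers summed to at most 1.80 FPKM, with Cpa3, Kit, Mcpt4 and Tpsb2 each below 0.1 FPKM in mean over the 8 libraries, and Schwann cell markers to at most 5.04 FPKM, with 1 of 3 tested markers higher. The platelet list summed to 65.8 to 79.6 FPKM, nearly all from Pf4, with 1 of 2 tested markers higher and Gp9 and Gp1ba each below 0.1 FPKM in mean over the 8 libraries.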

How the data were processed

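RNA was extracted with TRIzol, and stranded mRNA libraries were sequenced on a NovaSeq. The submitters' processing notes name HISAT2 2.1.0 and the mm10 genome. The counting program, annotation, strand setting and filters are not given in the sources used here. The authors deposited FPKM per gene and library, not pooled. The low glucose medium held 5.5 mM glucose, and HFHG 25.5 mM glucose with 300 µM palmitic acid.

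Reads were recovered from exact ratios of low FPKM values between libraries, shared by at least 333 genes, and every one of the 19301 genes gave whole reads. Reads on the listed genes were 99.8% of the totals. Genes with at least 0.5 FPKM in at least 4 libraries were fitted with limma 3.58.1 in R 4.3.3 on log2(FPKM + 0.1), eBayes with a trend, HFHG minus LG, no covariate, with Benjamini-Hochberg adjustment over 11710 genes. Such fold changes understate those of low genes. Ptger3 had an exact permutation test over 70 arrangements, whose smallest p-value is 0.0286. The fit was tested on simulated data. The members and lists were chosen with earlier results of these data known. All members are named, and from each list at most 4 genes, first those past a log2 fold change of 1, then those with the highest mean FPKM. Markers, and list genes outside this rule, were named where a result needed them. Gene positions are from GENCODE M21, promoters from RefSeq. Alternatives were other pseudocounts, filters and scalings, the replicate number as a block, robust eBayes, leaving out each library and, added after seeing the files, voom on the recovered reads.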

Additional observations from a re-analysis of the deposited data

Results flagged for a closer look

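Of 76 groups of 4 libraries examined (38 genes in each medium), 2 held a library far from the others by Dixon's test, where chance flags about 1 in 20. Both were Zfp36l1, at 87.9 FPKM in HFHG replicate 2 against 84.7 to 85.0 FPKM in the other HFHG libraries, and at 44.6 FPKM in low glucose replicate 1 against 46.3 to 46.5 FPKM in the others. None of the 10 prostaglandin genes held such a library in either medium by this test, Ptger3 included.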

How the results depend on the processing

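The counts of members (7 higher, 1 lower, 2 past the 2-fold threshold) changed by less than 1.5 times under each of 18 alternatives, and so did the count of other pathway genes called. Over these, the log2 fold change ran from 1.92 to 2.01 for Hpgd, 2.13 to 2.57 for Ptgfr, 0.75 to 0.85 for Ptgs1, 0.50 to 0.73 for Ptgs2, 0.36 to 0.61 for Ptgis, 0.32 to 0.47 for Ptger4 and -0.30 to -0.19 for Ptgir. Each of these kept a limma adjusted p-value below 0.05 throughout. Ptges kept its direction (0.028 to 0.124) and lost its call in 8 alternatives. Ptger2 had -0.12 with quantile normalization and was called in none. Ptger3, tested without a filter, had an adjusted p of 0.658 by limma. The numbers of the replicates showed no pairing of the samples, as correlations of deviations ran from -0.0736 to -0.00558. With 4 libraries per group, this cannot show that the cultures were unpaired. With the replicate block 6 members were higher, Ptges (0.0649, limma adjusted p = 0.0966) no longer being called. The block moved the calls over all genes from 7592 to 7342, and no sample correlated best with its own number. Other genes that changed sign, in no case called, were Slco2a1 (0.0255), Lta4h (0.0032) and Dusp1 (0.0542) with FPKM rescaled to the same sum, Alox5ap (-0.0057) with median-ratio scaling, and Lta4h (0.0013), Alox5 (-0.0106) and Dusp1 (0.0045) with quantile normalization. Leaving out each library in turn, values ran from -0.0612 to 0.117 for Alox5ap, -0.0048 to 0.181 for Alox5 and -0.0367 to 0.0273 for Dusp1. The causes were not tested. Rescaling to the same sum moved the median of all genes to 0.07. Reads limit Ptger3, Ptger2 and Ptgis.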
